A study of Mus musculus with 5 samples.

Results

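Naive CD4 T cells were picked out of 5 single-cell libraries of mouse mammary tumours by their raw UMI (unique molecular identifier) counts. A member had at least 1500 UMIs, under 0.3% of them from Krt8, Krt18, Krt19 and Epcam, at least 2 UMIs of Cd3e, Cd3d and Cd3g together, at least 1 of Cd4, none of Cd8a, Cd8b1, Foxp3 or Cd79a, at least 3 of Lef1 and Tcf7 together, and at most 1 of Icos, Tnfsf8, Il1rl1 and Pdcd1 together. Of 24022 barcodes, 1278 met these limits. Placebo 1 held 1221 of them and Progesterone 1 held 48. Only 5 came from Placebo 2 and 4 from Progesterone 2, and Progesterone 3 had none. The members were thus chosen on measured values of these genes, and levels of these genes in the members are descriptions, not findings.

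Naive CD4 T cells are helper-lineage lymphocytes that have left the thymus and have not yet met their antigen. They circulate between blood and lymphoid tissue under the guidance of homing receptors such as Ccr7 and the egress receptor S1pr1, and they survive on interleukin-7 and weak self-recognition. The transcription factors Lef1 and Tcf7 keep them in this resting state, Satb1 organises chromatin in developing and naive T cells, and St8sia6 encodes a sialyltransferase. On activation they take up effector or regulatory programmes, with Cd44 among the surface molecules that mark antigen experience.

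The tumours grew from SSM2 cells, a hormone receptor-positive mouse mammary tumour line, placed in a mammary gland of mice aged 10 to 12 weeks. Each mouse also received a pellet under the skin, either placebo or progesterone (60 mg, for release over 60 days), and tumours were dissociated with enzymes after 28 to 62 days. Batch 1 held 1 placebo and 1 progesterone library (Placebo 1, Progesterone 1), and batch 2 held 1 placebo and 2 progesterone libraries (Placebo 2, Progesterone 2, Progesterone 3). All libraries share the tumour line and the pellet surgery, and no sort for T cells is described. Nothing in the labels states that each library is a separate mouse, and the deposited names give Progesterone 2 and Progesterone 3 the same identifier. Any p-value here therefore reflects library-to-library spread, part of which may be technical.

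The libraries differed widely in what they contained. T cells, defined by the same UMI, keratin, Cd3 and Cd79a limits, were 86.2% of the barcodes with at least 1500 UMIs in Placebo 1 and 21.2% in Progesterone 1, but only 0.734 to 2.25% in the batch 2 libraries. Placebo 1 therefore stands apart from the other placebo library as well as from the progesterone libraries. Median UMIs per barcode were 8407 and 8137 in batch 1 and between 26872 and 31627.5 in batch 2, where members were far shallower than their library, with medians of 4357 and 4033. Between 2 and 12 barcode sequences were shared by any pair of libraries. No barcode was a member in more than 1 library, and 6 members carried a barcode also present in another library.

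Naive CD4 T cells made up a smaller share of T cells in Progesterone 1 than in Placebo 1, but in batch 2 the order depended on the library and on how the share was taken. Members were 30.0% of 4071 T cells in Placebo 1 (exact Clopper-Pearson 95% interval 28.6 to 31.4%) and 12.2% of 395 in Progesterone 1 (9.10 to 15.8%). In batch 2 they were 4.10% of 122 T cells in Placebo 2 (1.34 to 9.31%). They were 11.1% of 36 in Progesterone 2 (3.11 to 26.1%) and 0 of 53 in Progesterone 3 (0 to 6.72%). There, 3 counts would be a share of 5.66%. These intervals cover counting error only. The 2 placebo libraries were the highest and the second lowest of the 5, so the treatment groups overlapped.

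The treatment coefficient of log2 members over T cells, with batch in the model, was -0.79 (progesterone minus placebo), and an exact two-sided permutation test over the 6 arrangements within batches gave p = 0.833. The smallest p this exact permutation can give is 0.167. Without Progesterone 3 the coefficient turned to 0.0756, and without Progesterone 2 it was -1.78. With every barcode thinned to 1500 UMIs the shares were 10.98% and 5.03% in batch 1, and 2.41%, 0% and 0% in Placebo 2, Progesterone 2 and Progesterone 3, from 2, 0 and 0 members (coefficient -0.94, exact permutation p = 0.167, the smallest possible). As a share of all barcodes with at least 1500 UMIs, members were 25.8% and 2.58% in batch 1 and 0.0920%, 0.0815% and 0% in batch 2 (coefficient -2.40, exact permutation p = 0.333). The difference among T cells was therefore within the spread between libraries, and its sign rested on single libraries. Since both sides of a share can move, fewer naive cells and more other T cells cannot be told apart.

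**Figure D1:**
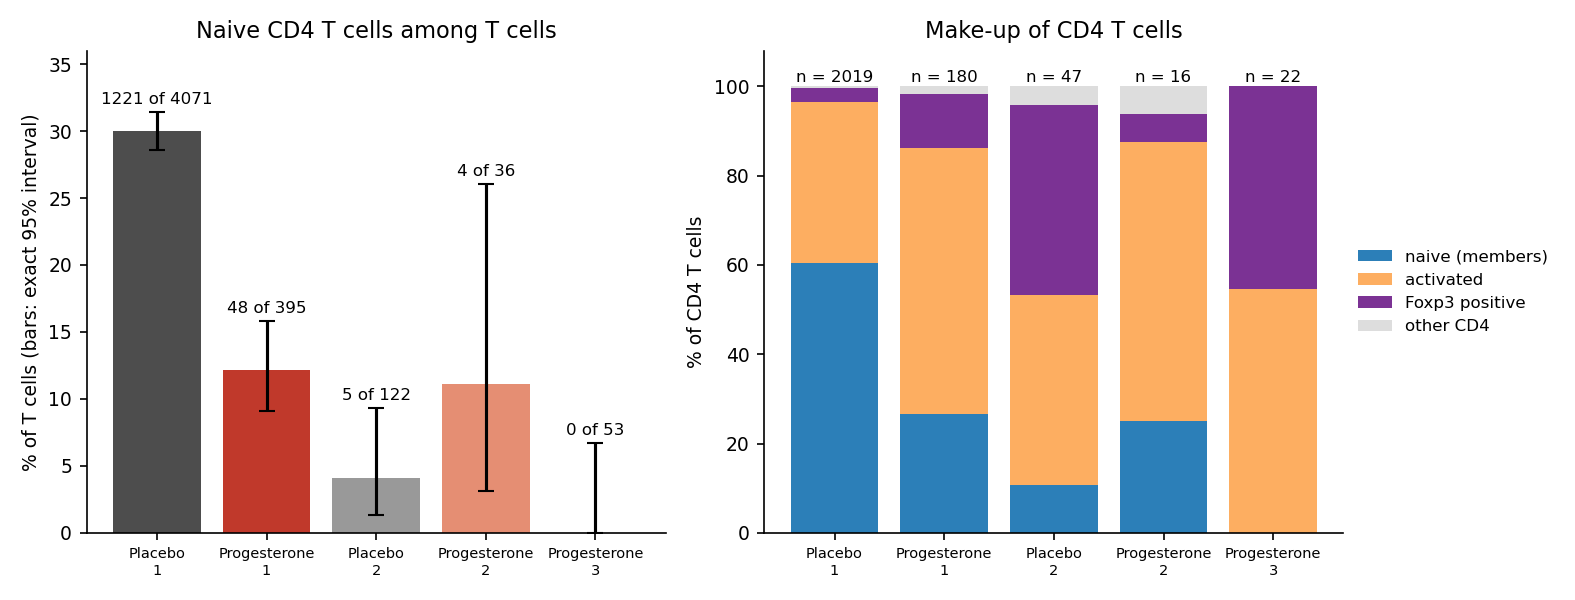
Left, naive CD4 T cells as a percentage of T cells in each library, with exact 95% intervals and the cell counts above the bars; right, CD4 T cells of each library split into members, activated, Foxp3-positive and other cells (percent). Placebo 1, with 30.0% of T cells, stands above the other 4 libraries, and Placebo 2, with 4.10%, lies below Progesterone 1 and Progesterone 2.

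Within CD4 T cells (Cd4 detected, Cd8a and Cd8b1 absent) the members were the majority only in Placebo 1. They were 60.5% of 2019 CD4 T cells there and 26.7% of 180 in Progesterone 1. In batch 2 they were 10.6% of 47 cells of the placebo library, 25% of 16 in Progesterone 2 and 0 of 22 in Progesterone 3. Activated cells, with at least 2 UMIs of Icos, Tnfsf8, Il1rl1 and Pdcd1 and no Foxp3, were 35.96% and 42.6% in the placebo libraries of batch 1 and 2, and 59.4%, 62.5% and 54.5% in Progesterone 1, 2 and 3. Here the treatments did not overlap, on 20, 10 and 12 activated cells in batch 2, and this difference was not tested. Foxp3-positive regulatory cells were 3.27% and 42.6% of CD4 T cells in the placebo libraries of batch 1 and 2, and 12.2%, 6.25% and 45.5% in Progesterone 1, 2 and 3. For regulatory cells the treatments overlapped, with Placebo 1 lowest and Placebo 2 second highest.

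The label of naive CD4 T cells was checked on genes the rule did not use. Satb1 was detected in 99.3% of members in Placebo 1, 95.8% in Progesterone 1 and every one of the 9 members of batch 2. St8sia6 was detected in 87.5% of members in Placebo 1, 70.8% in Progesterone 1, 4 of 5 in Placebo 2 and 1 of 4 in Progesterone 2. Ccr7, which serves homing, was detected in 91.0% and 72.9% of members of Placebo 1 and Progesterone 1, S1pr1, which serves egress, in 94.8% and 89.6%, and the quiescence factor Klf2 in 96.8% and 97.9%. Cd44 was detected in 13.3% of members in Placebo 1 (11.5 to 15.4%) and 31.2% in Progesterone 1 (18.7 to 46.3%), against 33.3% and 78.5% of activated CD4 T cells. After thinning each member to 1500 UMIs the shares with Cd44 were 4.18% and 14.6%. Defining genes of naive T cells were thus present in the members, as the label says. Satb1 and St8sia6 were not particular to them, since activated CD4 T cells held both, as given below. In Progesterone 1 Cd44 was detected in a larger share of members than in Placebo 1, at median depths of 8827.5 and 8279 UMIs.

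The 5 marker genes did not mark the same boundary. In counts per 1e+06 UMIs summed over a class (CPM), St8sia6 was at 749.7 in naive CD4 and 31.9 in naive CD8 T cells of Placebo 1, and at 286.6 and 9.36 in Progesterone 1. In the same libraries Satb1 was at 4151 and 3907 CPM in naive CD4 T cells, and at 3676 and 1825 CPM in B cells. St8sia6 thus separated the CD4 from the CD8 naive cells in both libraries, while Satb1 was nearly as high in B cells of Placebo 1 as in the members. In Placebo 1 St8sia6 was nearly as high in activated (672.2 CPM) and regulatory (633.1 CPM) CD4 T cells as in the members. In Progesterone 1 it was at 144.5 and 146.3 CPM in these classes. In activated CD4 T cells of the same 2 libraries Satb1 was at 3760 and 1183 CPM. Lef1 there was at 2426.5 and 871.5 CPM, and Tcf7 at 493.1 and 476.0 CPM. Lef1 was at 3117 and 2798 CPM in naive CD4, 2348 and 1676 CPM in naive CD8 and 21.2 and 31.9 CPM in B cells. Tcf7 was at 522.7 and 850.4 CPM in naive CD4, 482.6 and 514.9 CPM in naive CD8, and 5.30 and 9.44 CPM in B cells. Levels are compared between classes for one gene at a time, not between genes.

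**Figure D2:**
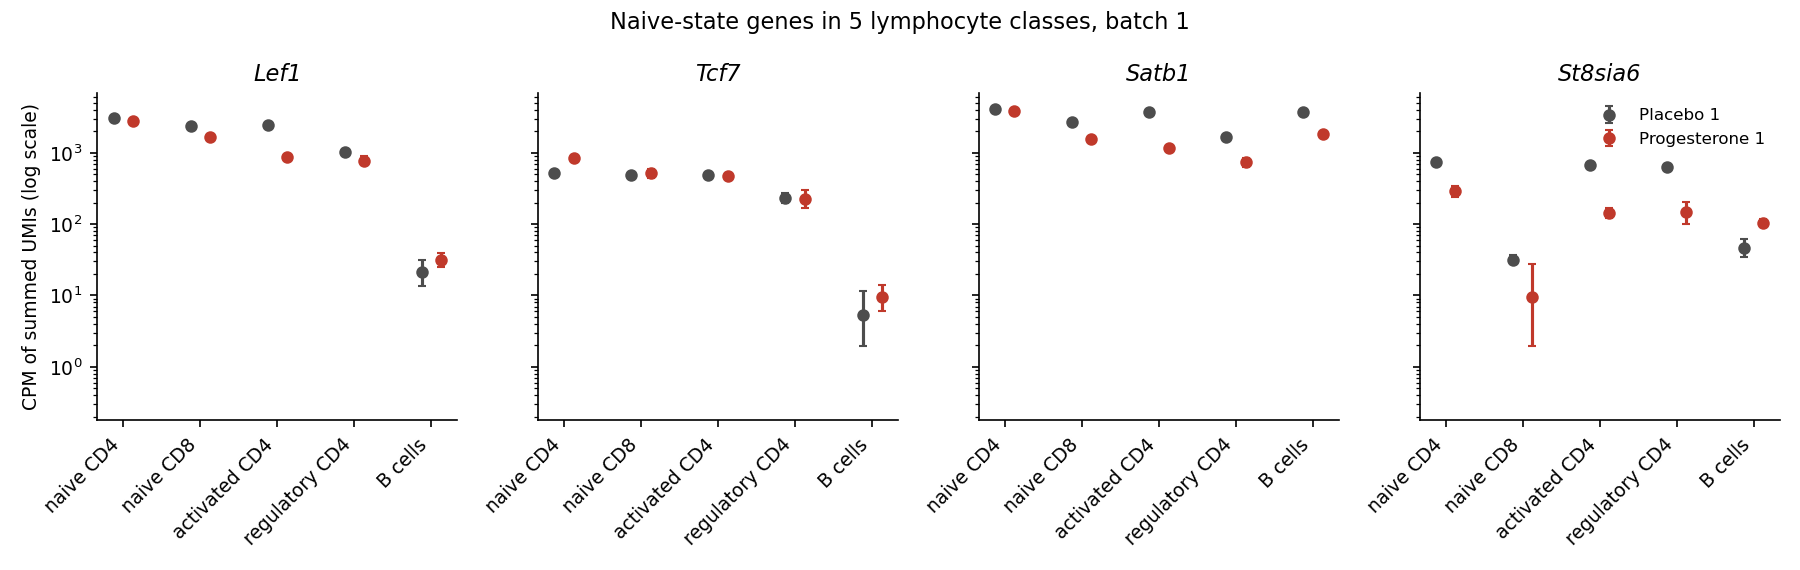
Summed level (CPM, log scale) of Lef1, Tcf7, Satb1 and St8sia6 in 5 lymphocyte classes of Placebo 1 and Progesterone 1, with exact 95% Poisson intervals. St8sia6 is at 749.7 CPM in naive CD4 and 31.9 CPM in naive CD8 T cells of Placebo 1, while Satb1 stays above 1000 CPM in B cells of both libraries.

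In Placebo 1 the limit on activation genes did not fall at a break in the Lef1 level, and it cut differently in Progesterone 1. Cells that met every other limit were grouped by their summed UMIs of Icos (a costimulatory receptor), Tnfsf8 (CD30 ligand), Il1rl1 (the interleukin-33 receptor) and Pdcd1 (PD-1). In Placebo 1, 797 cells had 0, 424 had 1, 236 had 2, 145 had 3 and 315 had 4 or more. Lef1 in these groups was at 3142, 3071, 2942, 3063 and 2011 CPM, and Cd44 at 25.5, 47.0, 67.3, 64.1 and 371.8 CPM. Cells just outside the limit, with 2 or 3 UMIs, thus resembled the members for Lef1 in Placebo 1, and the level dropped only at 4 or more. Cells with 4 or more were also deeper than cells with 0, at median totals of 10220 and 8107 UMIs. In Progesterone 1 these medians were 10511 and 7914 UMIs.

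In Progesterone 1 the same groups held 25, 23, 11, 13 and 56 cells. Lef1 went from 2955 CPM through 2643, 2450 and 2051 CPM to 590.3 CPM, and Cd44 from 98.3 through 106.6, 155.5 and 301.3 to 954.8 CPM. Cells just outside the limit were here already lower in Lef1 and higher in Cd44 than the members. The other limit, on Lef1 and Tcf7, hardly mattered. In Placebo 1, 3 CD4 T cells that met the other limits sat just outside it at 2 UMIs, 6 members sat exactly at 3, and the median member had 28. These values describe the choice of members and carry no test.

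**Figure D3:**
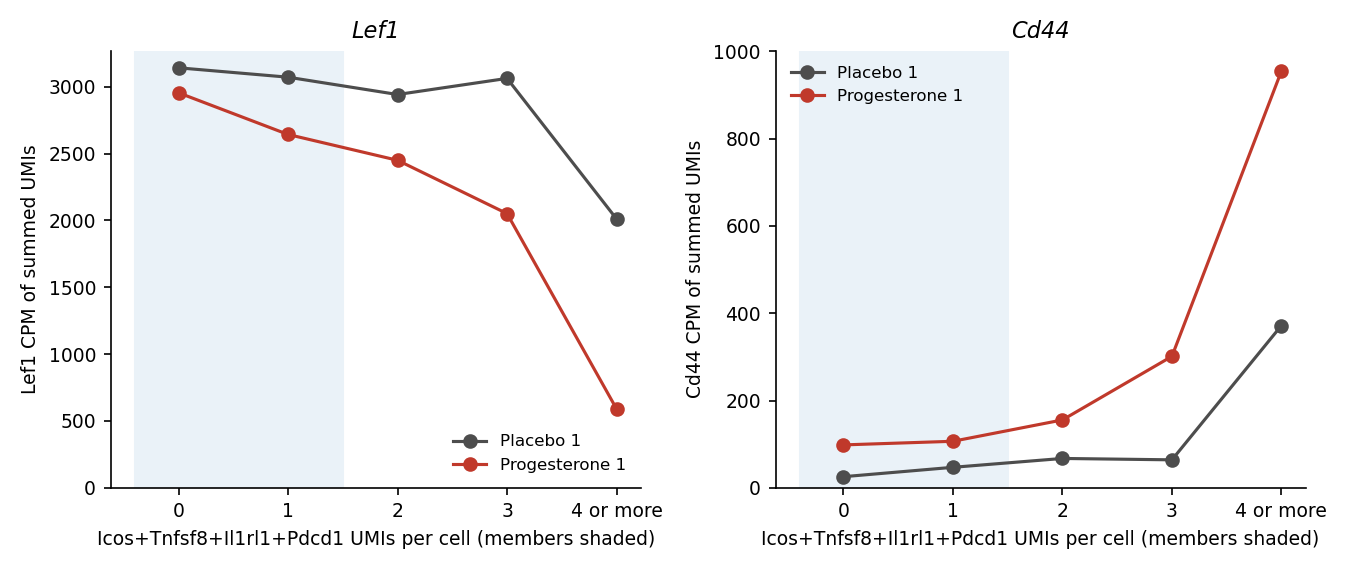
Summed level (CPM) of Lef1 and Cd44 in CD4 T cells that met every other limit, by their UMIs of Icos, Tnfsf8, Il1rl1 and Pdcd1; the shaded groups are members. In Placebo 1 Lef1 stays between 2942 and 3142 CPM up to 3 UMIs, whereas in Progesterone 1 it goes from 2955 to 2051 CPM over the same groups.

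Other genes set the members apart from the remaining T cell classes in both batch 1 libraries, given here as levels without a test because the rule drew that contrast. Against naive CD8 T cells, the members were higher in Tmem64 (199.4 against 33.8 CPM in Placebo 1, 205.0 against 40.6 CPM in Progesterone 1), Cers6, a ceramide synthase (527.7 against 132.85 and 281.9 against 37.4 CPM), Runx1, a transcription factor of T cell development (1005 against 338.2 and 1216 against 337.0 CPM), and Adk, adenosine kinase (2387 against 886.9 and 1330 against 259.0 CPM). Ubash3b, Tgfbr3, Rassf3, Trib2 and Zfp281 were also among the 10 genes of largest ratio besides St8sia6. The members were lower in Runx3, which drives the CD8 lineage (60.8 against 317.2 and 67.6 against 511.8 CPM), in the cytokine receptor chain Il2rb (8.44 against 98.0 and 11.6 against 93.6 CPM), and in the effector genes Ccl5 and Nkg7. Runx1 high with Runx3 low was therefore the pattern of the naive CD4 cells in both libraries.

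Against regulatory CD4 T cells the members had far less Ikzf2 (13.2 against 2574 CPM in Placebo 1, 4.66 against 5313 CPM in Progesterone 1), which encodes Helios. Il2ra, the high-affinity interleukin-2 receptor chain, was at 5.88 against 383.7 and 11.6 against 1361 CPM, and Tnfrsf9, Rgs16, S100a4, Klf12, Myo1e, Osbpl3, Lamc1 and Fam129a were also lower in the members. Higher in the members were Igfbp4 (227.1 against 71.7 and 281.9 against 62.1 CPM), which encodes an IGF-binding protein, Pde3b, a phosphodiesterase (1189 against 437.5 and 892.3 against 102.0 CPM), Actn1, alpha-actinin (290.7 against 97.1 and 258.6 against 53.2 CPM), and Mctp2 (285.5 against 22.4 and 221.3 against 35.5 CPM). These genes were picked by the size of their ratio in a contrast that the rule drew.

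Against activated CD4 T cells the ratios of the genes given here were smaller in Placebo 1 than in Progesterone 1. Igfbp4 was at 227.1 CPM in members and 176.7 in activated cells of Placebo 1, and at 281.9 and 74.1 CPM in Progesterone 1. Of the genes lower in the members, the adhesion receptor chain Itgb1 was at 45.9 against 184.9 CPM and at 128.1 against 729.7 CPM, Ctla4, an inhibitory receptor, at 47.0 against 200.7 and 67.6 against 398.3 CPM, and Rora, a nuclear receptor, at 96.7 against 358.1 and 279.6 against 1662 CPM. Ahnak, Crip1, Cpd, Nav2 and Tnfaip8 were likewise lower. The activated cells of Placebo 1 with 2 or 3 activation-gene UMIs, as shown above, had Lef1 levels close to those of members.

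Homing and egress receptors were well detected in the members of batch 1. Ccr7, the chemokine receptor for entry into lymphoid tissue, was at 453.4 CPM in Placebo 1, 372.8 in Progesterone 1, 306.7 in Placebo 2 and 754.3 in Progesterone 2. S1pr1, which lets cells leave it, was at 571.2, 461.3, 575.1 and 125.7 CPM in the same order. The quiescence factor Klf2 was at 785.2, 978.5, 766.8 and 251.4 CPM, Foxp1 at 3019, 2840, 2070 and 1634 CPM, and Bach2 at 957.2, 1009, 421.8 and 880.1 CPM. The values of batch 2 rest on 5 and 4 cells and 26081 and 15908 UMIs, against 10545857 and 429218 UMIs in batch 1. Levels of these genes were of one order in the 2 large libraries.

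Treatment was described in batch 1, library against library, since only Placebo 1 and Progesterone 1 held at least 10 members and 1 library per treatment allows no test. Of 2957 genes with a mean of at least 50 CPM, 71 were more than 2-fold higher in members of Progesterone 1 (2.4% of the genes) and 67 more than 2-fold lower (2.27%), with a median log2 ratio of -0.03. With TMM scaling in place of total UMIs, 54 were higher and 100 lower, with a median log2 ratio of -0.11. Most of the transcriptome of the naive cells, 2819 genes, lay within 2-fold. Of the 71 higher genes, 20 drew over 20% of their Progesterone 1 UMIs from a single cell, and 3 drew over 50%.

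**Figure D4:**
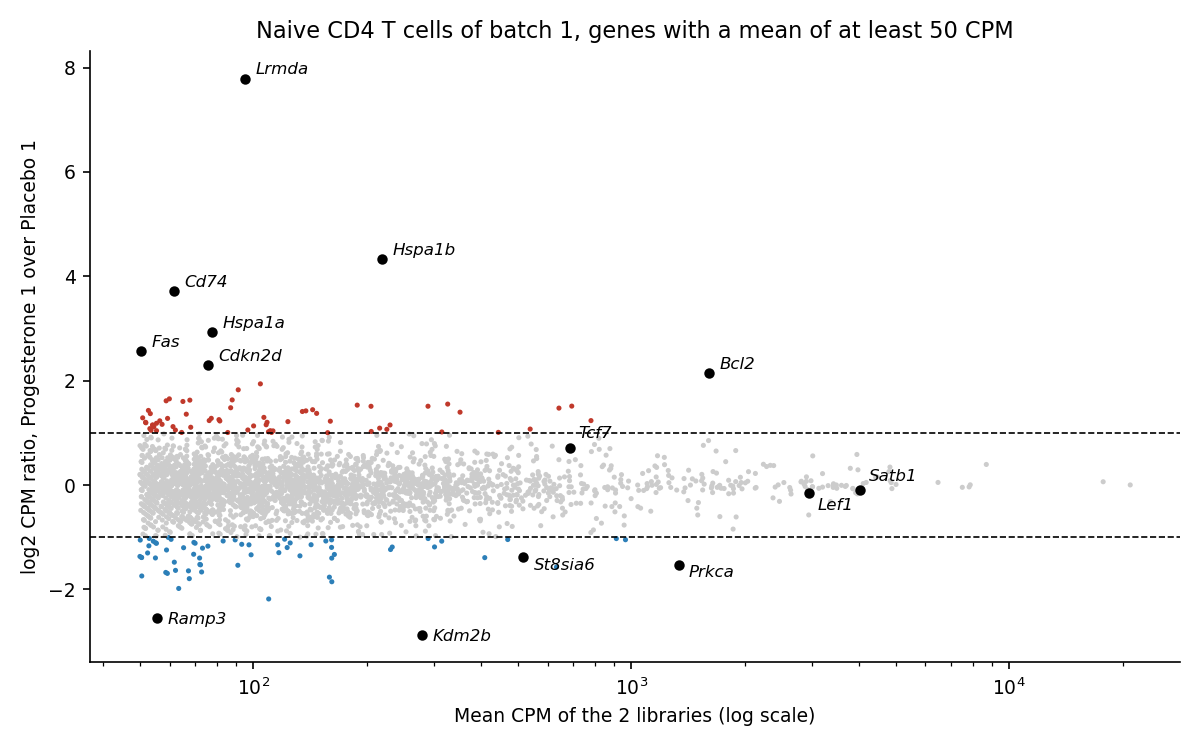
log2 CPM ratio of members in Progesterone 1 over Placebo 1 against mean CPM (log scale) for 2957 genes, with dashed lines at 2-fold and named genes in black. Lef1 and Satb1 lie near 0, Hspa1b and Bcl2 lie above the upper line, and Kdm2b, Ramp3, Prkca and St8sia6 lie below the lower line.

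Kdm2b, which encodes a histone demethylase that also recruits Polycomb repressor complexes, had the lowest ratio of the 2957 genes. It was at 492.5 CPM in Placebo 1 (exact Poisson 95% interval 479.2 to 506.1) and 67.6 CPM in Progesterone 1 (45.2 to 97.0), a log2 ratio of -2.87, and was detected in 86.1% and 31.2% of members (46.8% and 10.4% after thinning). In batch 2 it was at 536.8 CPM in Placebo 2, from 14 UMIs, and 62.9 CPM in Progesterone 2, from 1 UMI. Both placebo libraries were high and both progesterone libraries low, without overlap. Kdm2b was chosen by its batch 1 ratio, so its order in batch 1 was given by the choice. Of the genes within 2-fold in batch 1, 55.3% were also lower in Progesterone 2. In naive CD8 T cells Kdm2b was at 537.2 and 99.9 CPM in batch 1 and at 462.2 and 135.6 CPM in batch 2, the same order. In activated CD4 T cells it was at 543.8 and 206.8 CPM in batch 1, but at 801.3, 509.6 and 1072 CPM in Placebo 2, Progesterone 2 and Progesterone 3, so there the groups overlapped.

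Prkca, protein kinase C alpha, and St8sia6 followed the same order in the naive cells. Prkca was at 1978 CPM in Placebo 1, 687.3 in Progesterone 1, 1074 in Placebo 2 and 188.6 in Progesterone 2, and in naive CD8 T cells at 1375, 446.2, 1483 and 135.6 CPM. St8sia6 was at 749.7, 286.6, 613.5 and 62.9 CPM in the members, the last from 1 UMI. Both genes were higher in the placebo libraries of each batch, and for Prkca the value of Placebo 2 lay above that of Progesterone 1. Prkca was chosen after its values were seen. Of the genes within 2-fold in batch 1, 55.3% were also lower in Progesterone 2. St8sia6 was the only one of the 5 marker genes past 2-fold, and Lef1 and Satb1 differed by log2 ratios of -0.16 and -0.09. Tcf7 was at 522.7 and 850.4 CPM and Cd4 at 229.6 and 249.3 CPM in Placebo 1 and Progesterone 1. Cd4, Lef1 and Tcf7 are genes of the rule, so their levels here describe chosen cells and are no result.

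Among the other genes of lowest ratio, Ramp3, which shapes receptors for adrenomedullin and calcitonin gene-related peptide, was at 95.01 and 16.3 CPM in Placebo 1 and Progesterone 1 (log2 ratio -2.54). Ppm1l, a protein phosphatase, was at 179.8 and 39.6 CPM, Tbc1d4, a Rab GTPase-activating protein, at 245.4 and 72.2 CPM, and Phactr2, a phosphatase and actin regulator, at 252.4 and 69.9 CPM. Ramp3 had 3 UMIs in Placebo 2 and none in Progesterone 2, and Ppm1l had 8 and none. Tbc1d4 had no UMI in either batch 2 library. Prr14l, Rbbp8, Slc35d1, Galnt2, Dync1i2, Mtmr9 and Gfod1 complete the 12 lowest, with log2 ratios between -1.98 and -1.64 in batch 1.

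The 67 lower genes were long. Their median span in the GENCODE annotation of GRCm38 was 95.6 kb, against 46.8 kb over all genes past the floor and 41.2 kb for the 71 higher genes. Spans were found for 99.1% of genes past the floor. The share of UMIs from ribosomal protein genes was 20.9% and 21.9%, and that from Malat1, a nuclear RNA, 2.09% in both libraries. Whether gene length takes part in the difference was not tested.

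Hspa1b and Hspa1a, which encode the stress-inducible HSP70 chaperones, were among the highest ratios, with Cd74 between them and Lrmda above both. Hspa1b was at 20.7 CPM in Placebo 1, 417.0 in Progesterone 1, 0 in Placebo 2 (0 UMIs, which allows up to 115.0 CPM at 3 counts) and 817.2 in Progesterone 2. Both placebo libraries were low and both progesterone libraries high. Of the genes within 2-fold in batch 1, 44.7% were also higher in Progesterone 2. Hspa1b was chosen by its batch 1 ratio, so its order in batch 1 was given by the choice. The log2 ratio in batch 1 was 4.33, and 6.22% and 41.7% of members had a UMI (1.72% and 25% after thinning each to 1500 UMIs). A single cell held 30.2% of the Hspa1b UMIs in Progesterone 1 and 22.9% in Placebo 1. Hspa1a was at 18.1 and 137.5 CPM in batch 1, and at 0 and 440.0 CPM in batch 2. In naive CD8 T cells Hspa1b was at 10.503 and 1432 CPM in Placebo 1 and Progesterone 1, in B cells at 7.07 and 246.6 CPM, and in activated CD4 T cells at 33.5 and 512.1 CPM. The higher level in Progesterone 1 was thus present in each lymphocyte class measured there, and in batch 1 the treatment and the library cannot be told apart.

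The 2 genes are near copies, so UMIs could be split between them or lost, and their separate values are uncertain. Sequences before the RefSeq transcription start (GRCm38.p6) are shown for the heat shock element searched in these genes. Each has 150 bases, with a match to the heat shock element core in capitals. Those of Hspa1b (chr17:34959239-34959388) and Hspa1a (chr17:34972157-34972306) lie on the minus strand of chromosome 17.
Hspa1b: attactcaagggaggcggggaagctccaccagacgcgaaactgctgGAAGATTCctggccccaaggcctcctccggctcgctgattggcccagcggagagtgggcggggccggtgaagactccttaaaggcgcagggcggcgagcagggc
Hspa1a: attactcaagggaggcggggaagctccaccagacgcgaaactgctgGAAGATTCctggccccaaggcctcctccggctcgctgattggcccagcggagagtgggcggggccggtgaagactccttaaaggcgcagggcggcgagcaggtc
Hsph1: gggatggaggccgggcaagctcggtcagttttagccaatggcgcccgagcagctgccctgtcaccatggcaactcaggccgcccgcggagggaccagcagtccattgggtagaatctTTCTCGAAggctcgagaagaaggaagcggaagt
Dnaja1: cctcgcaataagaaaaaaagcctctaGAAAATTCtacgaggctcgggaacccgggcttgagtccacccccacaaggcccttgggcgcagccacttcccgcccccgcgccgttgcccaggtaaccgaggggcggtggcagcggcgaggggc
Hsph1 (chr5:149636337-149636486, minus strand) and Dnaja1 (chr4:40722318-40722467, plus strand) are shown as chaperone genes with such a match that did and did not pass 2-fold. In the GENCODE annotation the gene span of Dnaja1 starts at 40722150 and that of Hsph1 ends at 149636376. The Dnaja1 stretch and part of the Hsph1 stretch thus lie inside these spans. Hspa1a and Hspa1b differed at 1 of 150 bases. The core was searched as GAANNTTC or TTCNNGAA, which covers both strands, in the 250 bases before each start.

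Of the 29 immediate early and heat shock genes listed, 23 had a RefSeq promoter, and 7 of these held the core, against 12.9% of 27025 promoters. Among the 6 heat shock genes with a promoter 5 held it, and among the 17 others 2 did. Dnajb1, with no match in this window, was at 73.7 and 195.7 CPM in batch 1. Hsph1 was at 72.4 and 149.1 CPM, and Dnaja1, with a match, at 343.5 and 342.5 CPM. A match is a description of the letters only, and here it did not follow which chaperone genes were past 2-fold.

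Of the whole immediate early and heat shock list, 26 genes passed the floor, 6 of them were more than 2-fold higher in Progesterone 1, none was lower (2.4% of all genes were higher and 2.27% lower), and the median log2 ratio was 0.54 against -0.03 over all genes. Besides the chaperones, Zfp36, which promotes decay of cytokine mRNAs, was at 166.1 and 486.9 CPM in batch 1 and at 76.7 and 314.3 CPM in batch 2. Nfkbiz, an atypical IkB protein, was at 142.7 and 316.9 CPM in batch 1. Fos, at 461.3 and 773.5 CPM, and Jun, at 365.3 and 698.9 CPM, stayed within 2-fold. Zfp36 was higher in the progesterone library of each batch, on 2 and 5 UMIs in batch 2.

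**Figure D5:**
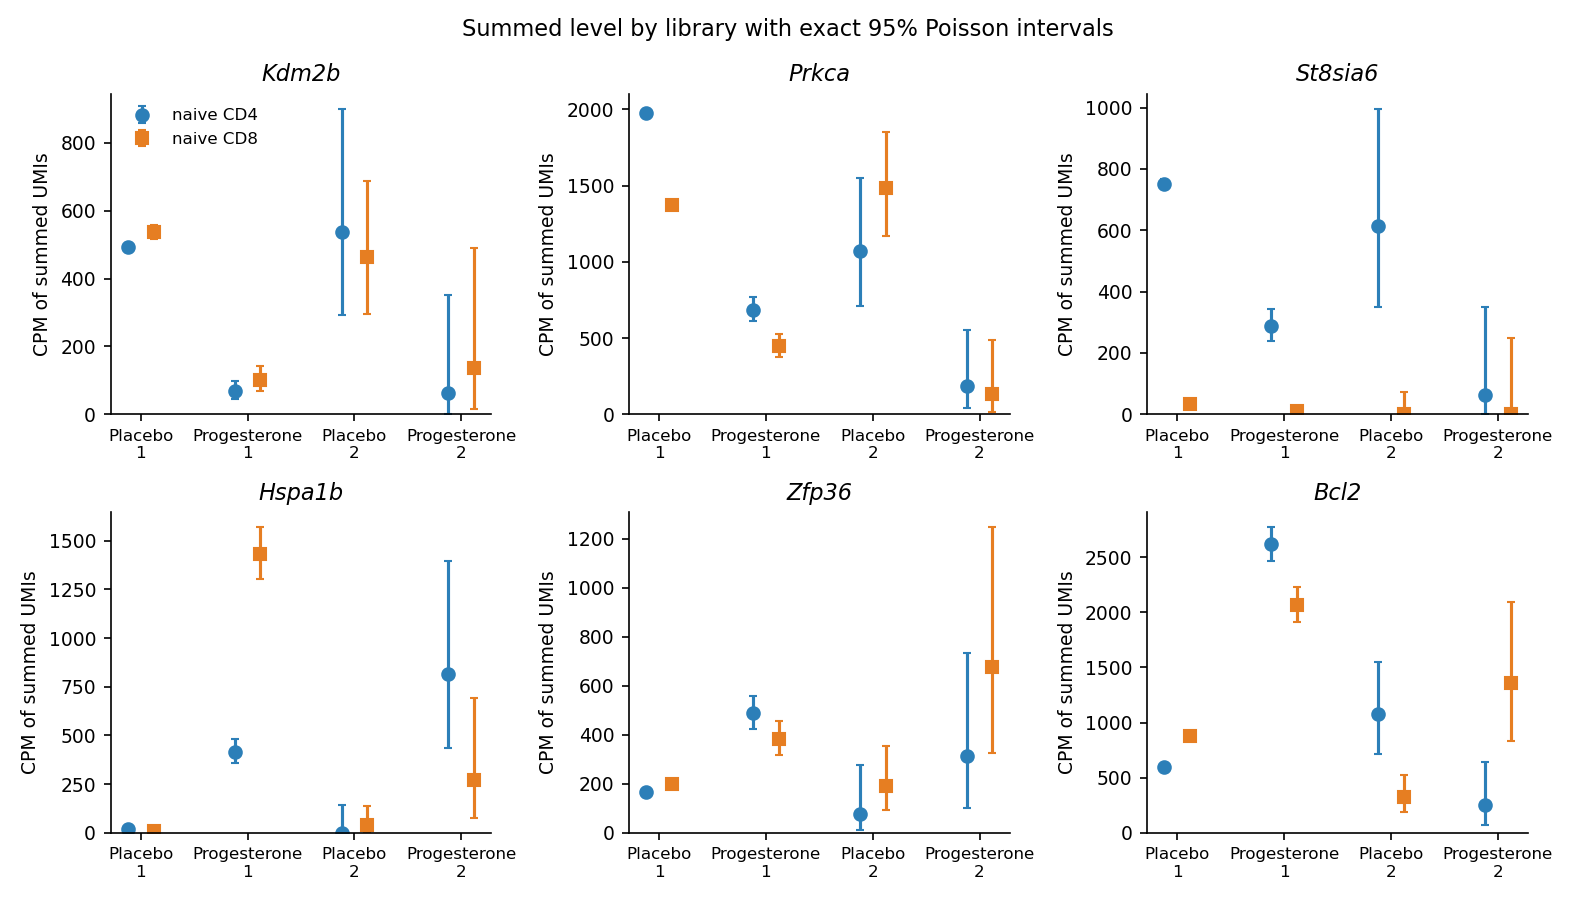
Summed level (CPM) of 6 genes in naive CD4 (circles) and naive CD8 (squares) T cells of the 4 libraries with members, with exact 95% Poisson intervals that cover counting error only. Kdm2b, Prkca and St8sia6 are lower in the progesterone library of each batch in naive CD4 cells, Hspa1b and Zfp36 are higher, and Bcl2 has opposite orders in the 2 batches.

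Cytokine receptor and survival genes gave 21 genes past the floor, with 3 higher, none lower (2.4% of all genes were higher and 2.27% lower) and a median log2 ratio of -0.03. Bcl2, the anti-apoptotic protein that naive T cells need, was at 593.0 CPM in Placebo 1 (578.4 to 607.9) and 2616 CPM in Progesterone 1 (2466 to 2774), and was detected in 72.6% and 89.6% of members. In batch 2 the order was the opposite, with 1074 CPM in Placebo 2 from 28 UMIs and 251.4 CPM in Progesterone 2 from 4 UMIs. In naive CD8 T cells Bcl2 was at 881.1 and 2066 CPM in batch 1 and at 327.4 and 1356 CPM in batch 2. The Bcl2 levels of the members therefore overlapped between treatments, although those of batch 1 differed by far more than counting error. Socs1 and Socs3, feedback inhibitors of cytokine signalling, were at 45.1 and 109.5 CPM and at 106.4 and 302.9 CPM in batch 1, and both were lower in Progesterone 2 than in Placebo 2. Il7r, the interleukin-7 receptor chain, was at 526.1 and 608.1 CPM in batch 1.

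T cell receptor genes were mostly level. Of 24 past the floor 1 was higher and none lower, a share near the 2.4% and 2.27% of all genes, with a median log2 ratio of 0.13. The higher gene was Prkcq, protein kinase C theta, which acts below the receptor, at 340.4 and 945.9 CPM in batch 1 and 115.0 and 440.0 CPM in batch 2. Cd3e was at 338.8 and 349.5 CPM, and Lck, the receptor-proximal kinase, at 188.3 and 221.3 CPM in batch 1. Prkcq was thus higher and Prkca lower in the progesterone library of each batch. In batch 2 these levels rest on few UMIs, from members with 26081 and 15908 UMIs in all. Prkca was chosen after its values were seen.

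Genes of activation, memory and helper subsets had 9 members past the floor, 4 of them higher, none lower (2.4% of all genes were higher and 2.27% lower), with a median log2 ratio of 0.64. Cd44 was at 33.2 and 102.5 CPM in batch 1, Rora at 96.7 and 279.6 CPM, Itgb1 at 45.9 and 128.1 CPM and Ahnak at 40.1 and 142.1 CPM. A single cell gave 41.0% of the Ahnak UMIs, 36.4% of those of Itgb1 and 29.2% of those of Rora in Progesterone 1. In members with no Cd44 UMI the log2 ratio of Ahnak was 0.64, within 2-fold. Neither Cd44 nor Ahnak had a UMI in the members of batch 2. Of the tonic and early activation genes 1 of 10 was higher (Nfkbid), and Nr4a1, a reporter of receptor signalling, was at 87.4 and 165.4 CPM. The effector cytokines Il17a and Il21 had no UMI in any member, and Lag3 had none either.

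The remaining lists held few genes past 2-fold, and their counts stand against 2.4% higher and 2.27% lower over all genes. Homing and egress receptors had 2 of 12 higher and none lower (median log2 ratio 0.06): Itga4, an integrin chain, at 193.8 and 510.2 CPM, and Gpr183, an oxysterol receptor, at 62.7 and 137.5 CPM. None of 20 quiescence and lineage transcription factors was past 2-fold (median 0.003), nor any of 14 MHC class I presentation genes (median -0.09) or 4 cell cycle genes. Of 10 interferon-stimulated genes 2 were higher, against 2.4% of all genes, Ifi27l2a and Ifi203 (median 0.47). The listed quiescence and lineage factors past the floor were thus within 2-fold between these 2 libraries.

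Steroid receptors and their common targets were examined because the pellet releases progesterone. Pgr, the progesterone receptor, had no UMI in any member, which in Placebo 1 allows up to 0.284 CPM at 3 counts. Nr3c1, the glucocorticoid receptor, was at 330.5 CPM in Placebo 1, 205.0 in Progesterone 1, 421.8 in Placebo 2 and 0 in Progesterone 2, where 188.6 CPM could have gone unseen. Of 13 listed targets past the floor 1 was higher, Klf9, at 34.6 and 83.9 CPM, and none was lower, against 2.4% and 2.27% of all genes (median log2 ratio 0.18). Ddit4, a listed target below the floor, had 78, 19, 0 and 4 UMIs in Placebo 1, Progesterone 1, Placebo 2 and Progesterone 2, and was called in 1 of the 7 fits over libraries described below (log2 ratio 2.68, edgeR adjusted p = 2.53e-06, up to 1.00 in other fits). Fkbp5 was at 58.3 and 44.3 CPM and Tsc22d3 at 235.4 and 244.6 CPM. Both of these targets stayed within 2-fold in batch 1.

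The genes chosen in batch 1 were read in batch 2, whose libraries played no part in choosing them. Of the 71 higher genes 60 had a UMI in batch 2, and 34 of them (56.7%) were higher in Progesterone 2, against 44.7% of the 2673 genes within 2-fold in batch 1. Of the 67 lower genes 63 had a UMI, and 41 (65.1%) were lower in Progesterone 2, against 55.3%. The higher genes summed to 6326 CPM in Placebo 2 and 9869 CPM in Progesterone 2 (ratio 1.56, counting interval 1.25 to 1.95), and the lower genes to 11618 and 5595 CPM (0.482, 0.376 to 0.612). In B cells the sum of the lower genes was 12284 and 8079 CPM in batch 1 and 8497 and 7565 CPM in batch 2, and in naive CD8 T cells the ratio was 0.555 in batch 1 and 0.698 in batch 2. In activated CD4 T cells it was 0.604 in batch 1, and 0.718 and 1.10 for Progesterone 2 and Progesterone 3 over Placebo 2. The higher genes had ratios of 2.26 and 2.14 in naive CD8 T cells of batch 1 and 2, 2.40, 1.03 and 1.29 in activated CD4 T cells, and 1.12 and 1.02 in B cells. With 9 cells behind batch 2, these are values and not a test.

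A test over libraries was possible only by admitting libraries with fewer than 10 members. With the 4 libraries that held a member and batch in the model, edgeR's quasi-likelihood test called 15 of 3585 genes at a Benjamini-Hochberg adjusted p under 0.05 (0.418%), 14 higher and 1 lower, on 1 residual degree of freedom. Kdm2b was the lower one (log2 ratio -2.87, edgeR adjusted p = 0.000562), and Hspa1b (4.47, edgeR adjusted p = 1.19e-10) and Hspa1a were among the higher. Over all fits the adjusted p of Kdm2b ranged from 0.000562 to 1.00 and that of Hspa1b from 3.8e-11 to 1.00. Across 7 fits that varied the tool, the batch term, the filter, doublets and the libraries admitted, Hspa1b was called in 6 and Kdm2b in 2. DESeq2 on the same 4 libraries called 1 gene, Hspa1b (adjusted p = 0.0018), and edgeR without the batch block called 2, Hspa1b and Apoe. Kdm2b was called by edgeR with batch and a filter on low counts, with and without marked doublets, and missed the threshold in the other 5 fits (edgeR adjusted p = 0.0511 with no filter), while its log2 ratio lay between -2.91 and -2.65 in all 7. Bhlhe40, Ddit4, Gadd45g, S100a6, Tpi1, Skap2 and Anxa2 were also called by the first fit.

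Of the 15 called genes, 5 are markers of other cells: Cxcl2, Apoe, H2-Ab1, Cd74 and Krt8. Krt8 is a gene of the rule, which limits its level. Its call and the epithelial sums below therefore rest on values used to choose the members. All 13 marker lists of other cells summed to more in the members of Progesterone 1 than of Placebo 1, by ratios from 1.01 to 21.4. The B cell list, with 13 and 7 of 15 genes detected, summed to 22.8 CPM in Placebo 1 and 270.3 CPM in Progesterone 1. Of its 116 UMIs in Progesterone 1, Cd74 gave 49 and H2-Ab1 29, both genes of MHC class II presentation. Cd79b was at 0 in both libraries, in cells that the rule had chosen for having no Cd79a UMI. The macrophage list (15 and 13 of 16 genes) summed to 93.9 and 316.9 CPM, the neutrophil list (10 and 8 of 12) to 20.5 and 167.7 CPM, the tumour epithelial list (7 and 8 of 13) to 4.46 and 95.5 CPM, and the CD8 list (8 and 6 of 10) to 9.96 and 58.2 CPM. In batch 2 the epithelial list reached 1495 and 1760 CPM in Placebo 2 and Progesterone 2. Cd74 had a UMI in 50% of members of Progesterone 1 and in 69.0% of its naive CD8 T cells, at median depths of 8827.5 and 11051 UMIs, and Krt8 in 16.7% and 24.1%. In both cases the share in members was below that in naive CD8 T cells. The source of these UMIs and their part in the other differences was not tested.

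The NK list (10 and 9 of 12 genes) summed to 9.39 and 69.9 CPM and the fibroblast list (6 and 3 of 8) to 1.14 and 21.0 CPM. Thymocyte markers (934.2 and 1060 CPM), regulatory markers (168.5 and 200.4 CPM), dendritic markers (41.8 and 55.9 CPM) and endothelial markers (201.3 and 202.7 CPM) differed by under 1.5-fold, as did innate-like T cell markers at 2.09 and 2.33 CPM. Red cell and platelet markers summed to 4.08 and 9.32 CPM. Among thymocyte genes Rag1 had no UMI in any member and Ptcra had 3 in Placebo 1, while Themis, also a gene of mature T cells, gave 640.8 of the 934.2 CPM. Pecam1 gave 200.6 of the 201.3 CPM of the endothelial list.

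Lrmda had the highest ratio of all, at 0.853 CPM in Placebo 1 and 188.7 CPM in Progesterone 1, but 97.5% of its Progesterone 1 UMIs came from 1 cell. Fas, the death receptor, was at 14.6 and 86.2 CPM, and Cdkn2d, a cell cycle inhibitor, at 25.5 and 125.8 CPM, with 37.5% and 58.3% of Progesterone 1 members detected. Sbno2 was at 43.1 and 165.4 CPM, S100a11 at 28.9 and 90.9 CPM and Trat1, an adaptor of the T cell receptor, at 42.9 and 132.8 CPM. Fas and Cdkn2d were spread over many cells, unlike Lrmda. Fas had no UMI in batch 2, and Cdkn2d had none in Placebo 2 and 1 in Progesterone 2.

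Variation among the members could be described in Placebo 1, the only library with at least 50 of them, after each was thinned to 1500 UMIs. Over 3884 genes with a mean of at least 0.05 UMIs per thinned cell the median Fano factor, variance over mean, was 1.13, and 95% of genes lay under 1.56. The highest were Malat1 (5.87) and the ribosomal RNA gene Rn45s (5.20). Alcam, a cell adhesion molecule, followed with 4.97, from 6.22% of thinned cells with up to 18 UMIs each. Mpp7 (3.21) and Kcnq5, a potassium channel (3.11), had UMIs in 25.6% and 3.77% of thinned cells. Prkca (2.98), Adk (2.92), Trps1 (2.89), Tox (2.71) and Grap2 (2.68) were also among the highest, as was Mir6236 (3.40). Alcam and Kcnq5 thus had UMIs in few thinned cells, whereas Prkca, Adk and Grap2 had UMIs in 82.6, 83.5 and 88.3% and varied in level.

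The marker genes were spread over this range. Satb1 (2.50, rank 18 of 3884), Lef1 (2.28, rank 27) and St8sia6 (1.71, rank 97) lay above the 95th percentile, whereas Tcf7 (1.15) and Cd4 (0.983) did not. Lef1, Tcf7 and Cd4 are genes of the rule, so their factors describe cells already chosen on their counts. Ccr7 was at 1.44, and the Fano factor of Cd44 was 1.83 with UMIs in 4.18% of thinned cells. Kdm2b, at 1.43, had UMIs in 46.8% of thinned members in Placebo 1. Its level was thus spread through the naive population of that library.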

How the data were processed

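UMI counts per gene and barcode were deposited for 5 libraries as raw count matrices, made with Cell Ranger 8.0.1 per the file headers. Version 7.0.0 and the mm10 build are given per the submitters' processing notes. The matrices list 24860 genes by symbol. Members, classes and gene lists were chosen with earlier results of these data known.

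The main share test was the exact permutation test. The planned edgeR test needed 10 members per library and a residual degree of freedom, could not be made, and was replaced by CPM of UMIs summed in batch 1. A gene was past the fold at a ratio above 2 or below 0.5 with a mean of at least 50 CPM. Named genes were the 12 of highest and 12 of lowest ratio, per list those past the fold and 2 to 4 defining genes, the 10 of largest ratio against each other class and the 12 of highest Fano factor. Examples from these sets are given with values. Some genes of these sets are not reported here. Prkca and the comparison of classes by library were chosen after their values were seen.

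Batch, named in the labels, was the replicate block, since titles put each library in a batch. Doublets were not removed in the main analysis. As an alternative scrublet scores were used, and after its own threshold had marked only 4, 9, 0, 87 and 2 barcodes (libraries in the order of the report) the top-scoring barcodes were marked at an expected rate of 8e-06 per barcode in the library, a choice made after seeing the data. Intervals cover counting error only. The first fit over libraries was also run on simulated data with a single dispersion for all genes and no batch effect. That setting differs from libraries of 5 and 4 members, so the run does not show how reliable the fits are there. Tools were Python 3.11.15, scanpy 1.11.5, R 4.3.3, edgeR 4.0.16 and DESeq2 1.42.0.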

Additional observations from a re-analysis of the deposited data

How the results depend on the processing

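The treatment coefficient of the share of T cells was -0.79, and with no replicate block, the 5 libraries compared without batch, it was -1.16 (exact permutation p = 0.7). Leaving out each library in turn gave -1.78 to 0.0756, the latter without Progesterone 3. Genes past 2-fold (71 higher and 67 lower in the reported comparison) numbered 226 and 196 at a mean of at least 20 CPM, 33 and 28 at 100 CPM, and 744 and 472 with barcodes thinned to 1500 UMIs, which left 193 and 9 members. They numbered 54 and 100 with TMM scaling, 115 and 119 with no activation-gene UMI, 34 and 146 when each gene lost its highest member, which takes more from 48 cells than from 1221, 77 and 100 without members that had a Cd44 UMI, and 80 and 80 with equal weight per member. Among the 24 named genes Tbc1d4 turned to a log2 ratio of 0.10 when thinned. Within 2-fold were then also Sbno2 (0.52), Trat1 (0.34) and Galnt2 (-0.83), as were Mtmr9 with no activation-gene UMI (-0.86) and Ahnak without Cd44 (0.64). Lrmda went from 7.79 to 2.44 with marked doublets removed. The alternatives on activation-gene UMIs, the highest member, Cd44 and equal weight were chosen after seeing the data. So were all fits over libraries but the first, which itself departed from the plan of at least 10 members per library.

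The edgeR fit over 4 libraries called 15 genes, and 12 with marked doublets removed. DESeq2 called 1 (25 at an unadjusted p under 0.05), edgeR with no replicate block 2 (38), with no filter on low counts 6 (129), and over 3 libraries without the batch block 17 (140), where DESeq2 called 0 (13). Over those 3 libraries S100a6 turned to -1.42 with edgeR and to -2.05 with DESeq2, Anxa2 to -0.35 and Krt8 to -2.04 with DESeq2, none called. The cause was not tested. Fits with batch and at least 5, 10 or 20 members, and fits with batch leaving out a library, have no residual degree of freedom and were not made.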
